A study of Drosophila melanogaster with 4 samples.

Results

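The genes described here encode the subunits of the vacuolar ATPase (V-ATPase) and their paralogs in the testis of *Drosophila melanogaster*. They were taken as every probe set that the array annotation gives to a single gene with a symbol starting with *Vha*, and where a gene had several probe sets the brightest over the 4 arrays stood for it. This gave 31 of the 11982 genes that have a probe set of their own. The gene table lists 33 genes with such a symbol, and the other 2, *Vha68-1* and *Vha68-2*, were not analysed here. The study compared testes of flies carrying a null allele of *nsr* (*CG3875*, labelled knockout) with testes of wild-type (WT) flies. *nsr* is a young duplicate of the RNA-binding gene *kep1* that acts in spermatogenesis. The WT stock was a wild-type recombinant line from the same gene targeting, so that mutant and control share their genetic background. All flies were males aged 0 to 2 days, and the seminal vesicles had been removed from the testes. Each genotype has 2 arrays (*nsr* mutant 1 and 2, WT 1 and 2), and every array had an RNA extraction of its own. Whether the extractions of a genotype drew on different flies is not stated, so the p-values rest on a spread between arrays that may be technical.

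The V-ATPase is a rotary proton pump of membranes. Its cytosolic V1 domain hydrolyses ATP and turns a central stalk, and its membrane domain V0 carries a ring of proteolipid subunits that moves protons as it rotates. The pump acidifies lysosomes, endosomes and secretory vesicles, and in insects it also energises the apical membrane of epithelia such as the Malpighian tubule. In *Drosophila* many subunits are encoded by several paralogs, marked by a number or letter after the hyphen of the symbol, and several of the additional copies are known for expression mainly in the testis.

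The values are linear intensities of GeneChip *Drosophila* Genome 2.0 arrays, 1 for each probe set and array. The test was limma, applied to log2(intensity + 16), with Benjamini-Hochberg adjustment over all 18769 probe sets other than Affymetrix controls. A log2 fold change is that of the mutant over WT on this scale, which understates the change of dim genes. Background was set on each array by the brightest of 70 negative control probe sets, which lay between 5.88 and 8.92, and a gene is called above background where its probe set was brighter. The *nsr* probe set had intensities of 23.2 and 27.6 in the mutant and 549 and 554 in WT, which checks the labels. It was the only call of this test over the array (log2 fold change -3.78, standard error 0.10, limma adjusted p = 0.00837). The arrays were not equally bright, and the values below are as deposited except where a normalization or equal array medians are named. Their median intensity was 12.1 and 14.1 in the mutant and 13.5 and 15.7 in WT, and the median gene above background had a log2 fold change of -0.08. Germline markers were present, with 15 of 16 above background on all 4 arrays and only *vas* below it. Of the muscle markers 5 of 5 with a probe set were above it too, and of the fat body markers 4 of 7. The germline markers thus do not show that the RNA was free of other tissue.

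Nearly all V-ATPase genes gave a signal in both genotypes. Of the 31 genes 30 were above background on all 4 arrays, with mean intensities from 21.1 for *VhaAC45RP* to 1479 for *Vha13*. The exception was *Vha100-4*, a copy of the membrane subunit a, at 0.49 and 1.31 in the mutant and 6.43 and 0.71 in WT, never above background. Probes differ in how brightly they report the same amount of RNA, so the intensity of one gene is not set against that of another, and paralogs are compared below only in how their ratio changes between genotypes.

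**Figure D1:**
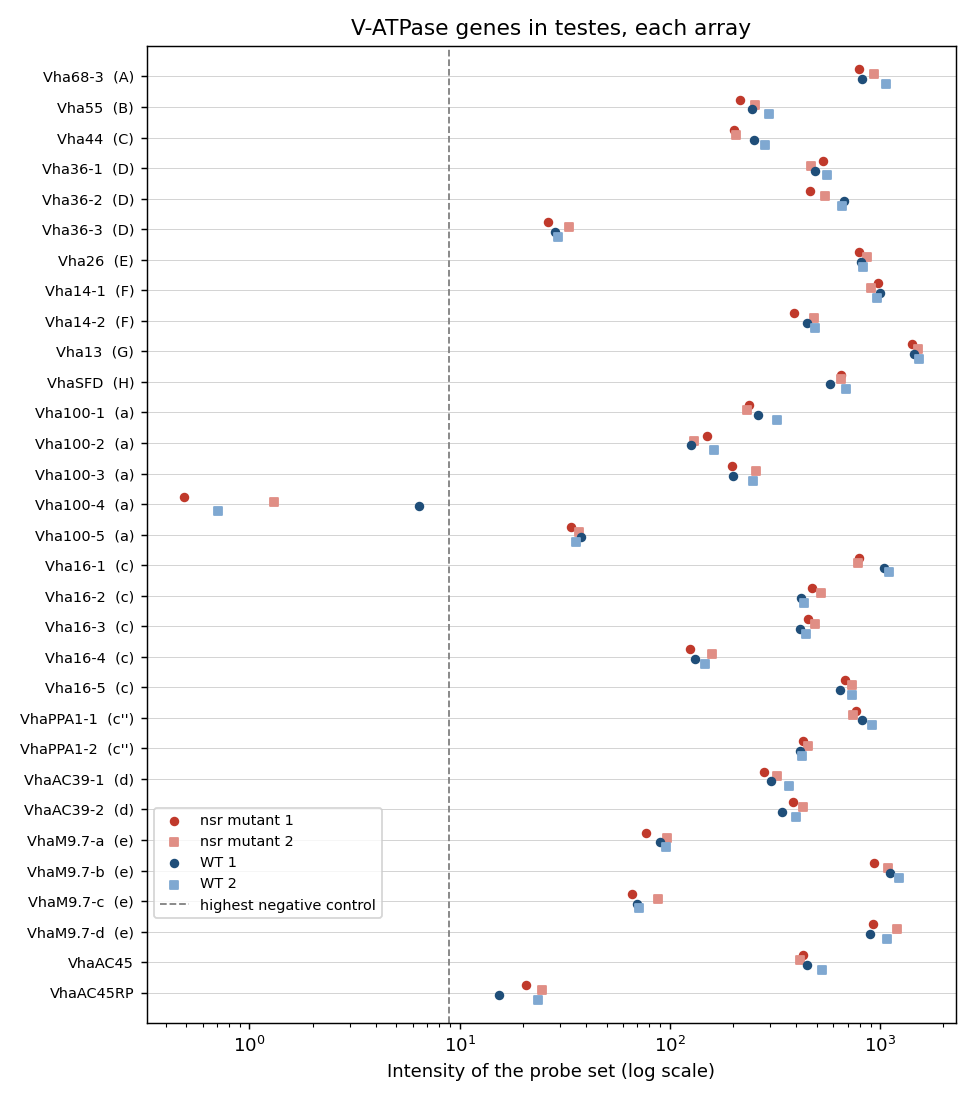
Intensity (x axis, log scale) of the 31 V-ATPase genes on each of the 4 arrays, with the subunit in brackets, upper case for V1 and lower case for V0. The dashed line is the highest negative control of any array (8.92), and only *Vha100-4* lies to its left.

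No V-ATPase gene passed the test between genotypes. Over the array 1 of 18769 probe sets (0.00533%) did, and the lowest adjusted p of a V-ATPase gene was 0.690. The number over the array was 122 or 117 when dim probe sets were left out, and 0 with a pseudocount of 1 or without any single array, while that of V-ATPase genes was 0 each time. At an unadjusted p under 0.05 there were 3 of 30, *Vha16-1*, *Vha44* and *Vha36-2*, where all probe sets gave 7.13% and all genes above background 9.18%. The log2 fold changes of the 30 ran from -0.43 to 0.22, with a median of -0.03. Over all 31 members the median was also -0.03, and it turned to 0.09 once the array medians were made equal. Their 95% intervals, each for a single gene, lay between -0.71 and 0.55, short of a 2-fold change in either direction. The mutant arrays were both lower than either WT array in 7 of the 30, where the share was 24.9% over all probe sets and 27.7% over genes above background. They were both higher in 3, where these shares were 10.2% and 7.79%. The V-ATPase genes thus stood near the background on both sides. With array medians made equal, 5 of the 30 lay below, near the 17.8% of all genes above background. Above lay 13 of the 30, over the 31.6% of all such genes, a difference that was not tested. The counts of low and high genes thus changed with the scaling. *Vha16-1*, *Vha44*, *Vha36-2* and *VhaM9.7-b* stayed below and *Vha16-2*, *Vha16-3* and *VhaPPA1-2* above under the 3 normalizations tried. *VhaPPA1-1* and *VhaAC45* overlapped under each of the 3 and *Vha100-1* with medians made equal. As deposited, the remaining 20 overlapped between genotypes, with log2 fold changes from -0.20 to 0.14. In the V1 domain 2 of 11 lay below and 0 above, in V0 4 of 17 below and 3 above, and of the 2 accessory subunits 1 lay below.

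**Figure D2:**
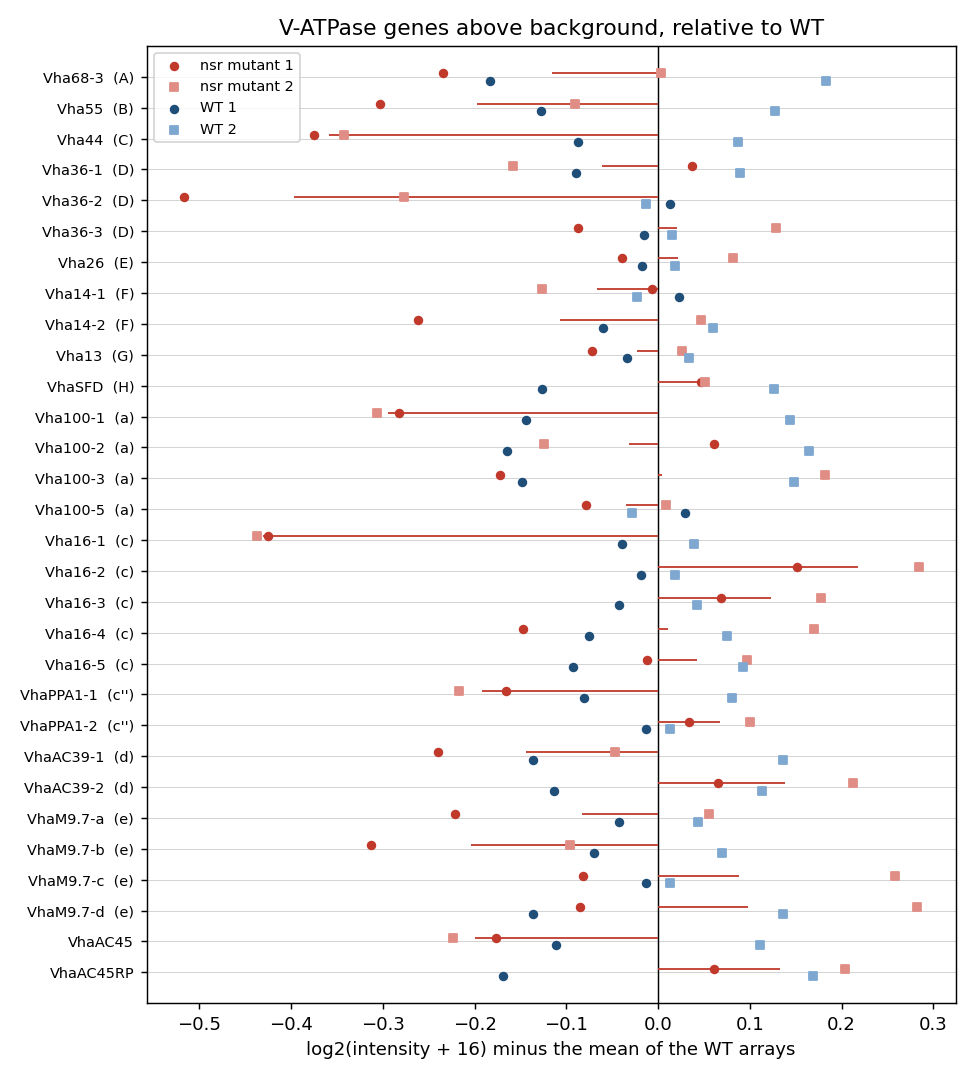
Each array's log2(intensity + 16) minus the mean of the 2 WT arrays (x axis) for the 30 genes above background, with a red line from 0 to the mutant mean, the log2 fold change. The mutant means of *Vha16-1*, *Vha36-2* and *Vha44* lie farthest to the left, at -0.43, -0.40 and -0.36, and that of *Vha16-2* farthest to the right, at 0.22.

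The V1 domain opens with the catalytic hexamer of A and B subunits. *Vha68-3*, the one A copy with a probe set annotated to a single gene, had 791 and 936 in the mutant and 820 and 1063 in WT, and the genotypes overlapped. *Vha55*, the sole B gene, had 216 and 253 in the mutant and 246 and 297 in WT. Its lower WT array lay below its higher mutant array, so the genotypes overlapped as deposited (log2 fold change -0.20, limma adjusted p = 0.814). Under each of the 3 normalizations both of its mutant arrays were lower than either WT array, with log2 fold changes of -0.12 to -0.05.

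The clearest difference among single-copy V1 genes was in *Vha44*, the C subunit, which bridges V1 and V0 and takes part in their regulated assembly. It had 202 and 207 in the mutant and 250 and 285 in WT, and WT was higher on each array. The log2 fold change was -0.36 ± 0.11 (standard error), with a limma adjusted p of 0.690. The other single-copy V1 genes overlapped. *Vha26* and *Vha13*, the E and G subunits of the peripheral stalks, had 798 and 869 against 810 and 831, and 1418 and 1518 against 1456 and 1526. *VhaSFD*, the H subunit that holds detached V1 inactive, had 653 and 655 in the mutant, between its WT values of 577 and 691.

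The rotor of V1 is built from the D and F subunits, and both have paralogs. *Vha36-2*, a D copy, had 462 and 549 in the mutant against 674 and 662 in WT. These arrays did not overlap, and the log2 fold change of -0.40 ± 0.12 was the lowest but 1 among the members (limma adjusted p = 0.690). *Vha36-1*, the D copy numbered first, had 537 and 467 in the mutant and 491 and 558 in WT, with a log2 fold change of -0.06 and overlapping arrays. *Vha36-3* was dim, at 26.2 and 33.1 against 28.4 and 29.4 (log2 fold change 0.02). For the F subunit *Vha14-1* had 981 and 901 in the mutant and 1002 and 970 in WT (log2 fold change -0.07), and *Vha14-2* had 390 and 487 against 451 and 492 (log2 fold change -0.11), and both overlapped.

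In V0 the proteolipid c subunit, which forms most of the proton-carrying ring, has 5 genes, whose values differed in direction between genotypes. *Vha16-1* had 791 and 785 in the mutant and 1038 and 1098 in WT, with the arrays of each genotype close together. Its log2 fold change of -0.43 ± 0.09 was the lowest of the 31 members, and limma gave it an adjusted p of 0.690. *Vha16-1* is also the one member with a further probe set, and that one did not separate the genotypes, with 710 and 678 in the mutant and 569 and 937 in WT. The further probe set gave a log2 fold change of -0.07 ± 0.25, and the mean of both gave -0.25.

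The other c copies lay on the opposite side or near 0. *Vha16-2* had 476 and 523 in the mutant and 421 and 432 in WT, above on both arrays, with the highest log2 fold change of the 31, 0.22 ± 0.10 (limma adjusted p = 0.728). *Vha16-3* had 452 and 488 against 417 and 443, also above on both arrays (log2 fold change 0.12, limma adjusted p = 0.846). These 2 genes are next to each other in the gene table, with 0 protein-coding genes between them. *Vha16-4*, at 124 and 159 against 131 and 148, and *Vha16-5*, at 683 and 738 against 645 and 735, overlapped, with log2 fold changes of 0.01 and 0.04.

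The c″ subunit of the same ring has a pair of genes, separated by 1 other protein-coding gene in the table. *VhaPPA1-1* had 772 and 745 in the mutant and 820 and 919 in WT, both mutant arrays below (log2 fold change -0.19, limma adjusted p = 0.763). *VhaPPA1-2* had 432 and 453 in the mutant and 418 and 425 in WT, both mutant arrays above, by a small amount (log2 fold change 0.07, limma adjusted p = 0.924). The d subunit, which couples the ring to the central stalk, also has a pair of genes, and both overlapped as deposited. *VhaAC39-1* had 281 and 324 in the mutant and 303 and 370 in WT (log2 fold change -0.14), and *VhaAC39-2* had 387 and 430 against 340 and 400 (log2 fold change 0.14). Under the 3 normalizations *VhaAC39-2* lay above both WT arrays, at 0.22 to 0.29. *VhaAC39-1* lay below them with quantile normalization (-0.0483) and loess (-0.0616), and stood at 0.0039 with overlap when array medians were made equal.

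Subunit a, which holds the proton half-channels and sets the membrane to which the pump goes, had 4 genes above background. *Vha100-1*, known for its role in neurons, had 238 and 234 in the mutant and 263 and 325 in WT, without overlap (log2 fold change -0.29 ± 0.13, limma adjusted p = 0.718). *Vha100-2* had 150 and 130 against 126 and 163, *Vha100-3* 197 and 256 against 200.1 and 249.5, and *Vha100-5* 33.9 and 37.0 against 37.7 and 35.6. These 3 overlapped, with log2 fold changes of -0.03, 0.00 and -0.03. *Vha100-4*, at background, is the direct neighbour of *Vha100-2* in the gene table.

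The small membrane subunit e has 4 genes. *VhaM9.7-b* had 938 and 1094 in the mutant and 1114 and 1229 in WT, with *nsr* mutant 2 just below WT 1 (log2 fold change -0.20, limma adjusted p = 0.777). *VhaM9.7-a*, at 77.2 and 96.8 against 89.4 and 95.9, had -0.08 and overlapped. *VhaM9.7-c*, at 65.9 and 87.7 against 69.9 and 71.5, and *VhaM9.7-d*, at 924 and 1197 against 891 and 1079, had 0.09 and 0.10 and overlapped too. Of the accessory subunits *VhaAC45*, the homolog of the mammalian Ac45 glycoprotein, had 430 and 416 in the mutant and 451 and 529 in WT, without overlap (log2 fold change -0.20, limma adjusted p = 0.776). Its relative *VhaAC45RP* was dim and overlapping, at 20.8 and 24.6 against 15.4 and 23.6.

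Ratios between paralogs were then compared, because a difference in the brightness of whole arrays largely cancels in them. For each pair of paralogs of one subunit above background, the log2 ratio of their intensities, each plus 16, was taken on each array. There were 28 pairs in 7 families, and pairs of one family share genes and are not independent. In 20 of the 28 (71.4%) the mutant ratios were both higher or both lower than either WT ratio, against 46.5% of all pairs of genes above background. That excess was not tested. With a further requirement of a mean difference of at least 0.3 the share was 7 of 28, near the 22.3% of all such pairs. With 2 arrays per genotype the exact two-sided permutation test over the 6 orders of the labels cannot go below p = 0.333, which each separated pair reached (adjusted p = 0.467 over the 28 pairs), so that no ratio could pass a threshold of 0.05.

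The largest difference of a ratio was within the c subunit. The log2 ratio of *Vha16-2* to *Vha16-1* was -0.71 and -0.57 in the mutant and -1.27 and -1.31 in WT, a difference of 0.65, or 1.57-fold. The ratios of *Vha16-3*, *Vha16-4* and *Vha16-5* to *Vha16-1* were higher in the mutant by 0.55, 0.44 and 0.47, again without overlap. All 4 rest on the brighter *Vha16-1* probe set. Against its further probe set, the ratio of *Vha16-2* was -0.56 and -0.36 in the mutant and -0.42 and -1.09 in WT, and the genotypes overlapped. Among the other c copies *Vha16-3*, *Vha16-4* and *Vha16-5* were lower relative to *Vha16-2* in the mutant by 0.09, 0.21 and 0.17, small differences that nevertheless separated the arrays. The ratio of *Vha16-5* to *Vha16-3* also separated them (difference -0.08), while those of *Vha16-4* to *Vha16-3* and of *Vha16-5* to *Vha16-4* overlapped.

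In the 2-gene families of V0 the copy numbered second was higher relative to the first in the mutant. The log2 ratio of *VhaPPA1-2* to *VhaPPA1-1* was -0.81 and -0.70 in the mutant and -0.95 and -1.08 in WT, a difference of 0.26. That of *VhaAC39-2* to *VhaAC39-1* was 0.44 and 0.39 against 0.16 and 0.11, a difference of 0.28. As deposited, the ratio separated the arrays of this pair while each gene by itself overlapped, and after normalization *VhaAC39-2* separated them too.

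The V1 ratios had no common order of copies. The log2 ratio of *Vha36-2* to *Vha36-1* was -0.21 and 0.22 in the mutant and 0.45 and 0.24 in WT, a difference of -0.34, with *nsr* mutant 2 close to WT 2. *Vha36-3* was higher relative to *Vha36-2* by 0.42 without overlap, and overlapped relative to *Vha36-1*. The ratio of *Vha14-2* to *Vha14-1* was -1.30 and -0.87 in the mutant and -1.12 and -0.96 in WT and overlapped.

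For subunit a the 3 separated ratios were those with *Vha100-1*. Relative to it *Vha100-2*, *Vha100-3* and *Vha100-5* were higher in the mutant by 0.26, 0.30 and 0.26, while the 3 ratios among these copies overlapped. The ratio of *Vha100-5* no longer separated the arrays with a pseudocount of 1 or with array medians made equal, and it was 0.0867 without WT 2. That of *Vha100-3* was 0.11 without *nsr* mutant 2. For subunit e *VhaM9.7-c* and *VhaM9.7-d* were higher relative to *VhaM9.7-b* by 0.29 and 0.30, and relative to *VhaM9.7-a* by 0.17 and 0.18. *VhaM9.7-b* was lower relative to *VhaM9.7-a* by 0.12. The ratio of *VhaM9.7-d* to *VhaM9.7-c* overlapped.

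**Figure D3:**
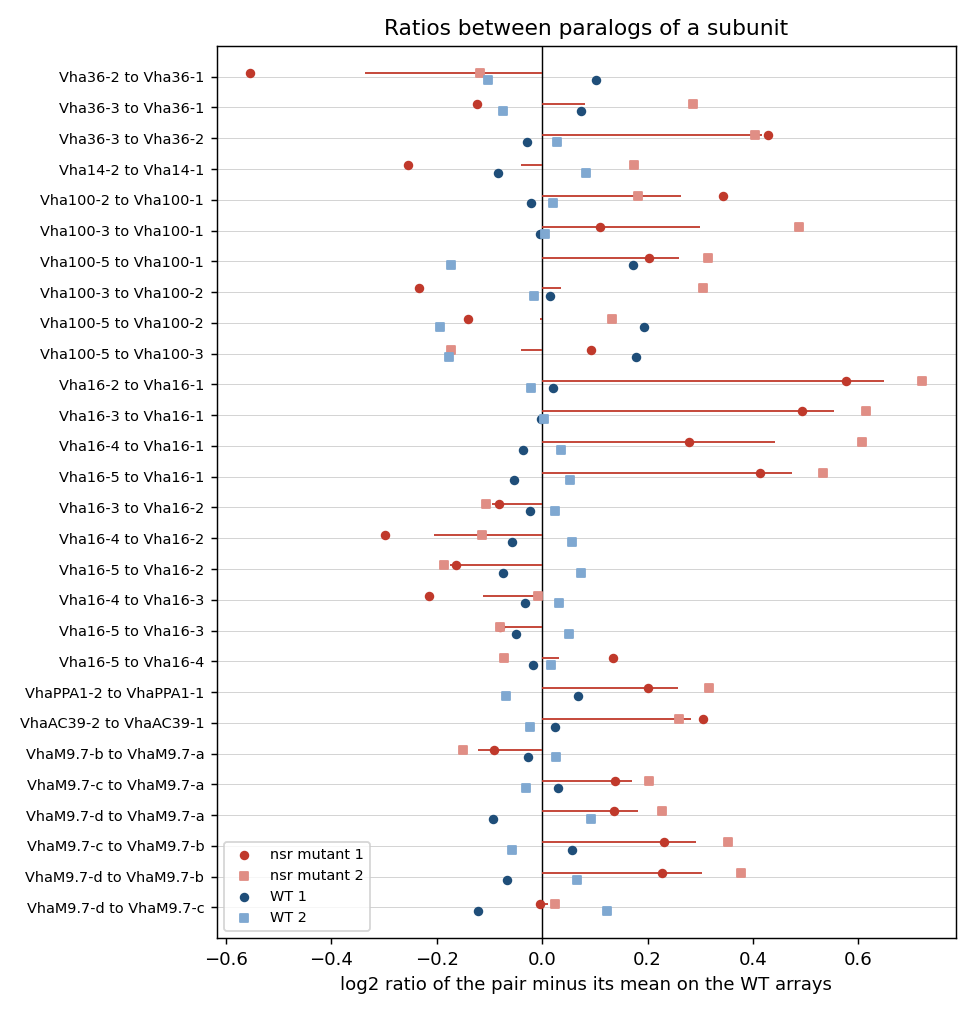
Log2 ratio of the 28 pairs of paralogs on each array minus its mean on the 2 WT arrays (x axis), with a red line from 0 to the mutant mean. The 4 ratios to *Vha16-1* have the mutant means farthest to the right, at 0.44 to 0.65.

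Genes that assemble the pump or bind it were read from a separate list of 12 symbols, of which 8 had a probe set and 7 were above background on all 4 arrays. None passed the test (0 in either direction), the mutant arrays were both lower in 2 of the 8 and both higher in 1, where all probe sets gave 24.9% and 10.2%, with a median log2 fold change of -0.04. *ATP6AP2*, an accessory protein of the pump known in mammals as the prorenin receptor, had 1062 and 1102 in the mutant and 1175 and 1334 in WT (log2 fold change -0.21, limma adjusted p = 0.753). *Lamtor1*, which anchors the Ragulator complex to the lysosome beside the pump, had a log2 fold change of -0.14, and *Rbcn-3B*, a subunit of the rabconnectin complex that aids assembly of V1 with V0, -0.30 with overlapping arrays. The 1 gene higher on both mutant arrays was *Lamtor4*, of the same complex as *Lamtor1*. It had 222 and 216 in the mutant and 185 and 210 in WT (log2 fold change 0.14). The probe set of *Mitf*, a transcription factor known to act on V-ATPase genes, was at background on all 4 arrays.

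A testis holds germline cells and somatic cyst and hub cells, and in whole-organ RNA fewer cells of a type and less RNA per cell cannot be told apart. Among 7 marker lists, that of cyst and hub cells was the one whose summed intensity did not overlap between genotypes, at 197 to 224 in the mutant and 268 to 271 in WT. Of single probe sets over the array, 24.9% lay below both WT arrays and 10.2% above both. Of the 6 cyst and hub genes with a probe set 3 were above background on all 4 arrays, and *tj* and *upd1* were above it on none. *so* had 50.4 and 57.4 in the mutant and 81.7 and 93.4 in WT (log2 fold change -0.57, limma adjusted p = 0.690), while *eya*, at 125 and 77.7 against 114 and 120, and *chinmo*, at 36.5 and 52.5 against 51.9 and 49.8, overlapped. Of the detected genes of this list *so* was the one with both mutant arrays below both WT arrays, as 27.7% of all genes above background had. The germline list summed to 9646 to 11205 in the mutant and 10540 to 11583 in WT. Of its 16 genes 5, with *vas* at background, lay below both WT arrays and 2 above, where all probe sets gave 24.9% and 10.2%. Among them *schuy* had 659 and 745 against 878 and 989 (log2 fold change -0.40), *can* 110 and 141 against 147 and 188 (-0.38), and *soti* 174 and 143 against 114 and 119 (0.39). The part of these markers in the V-ATPase values was not tested. Of the Malpighian tubule list *Oatp58Dc* and *Irk1* were at background, *ZnT35C* made up most of its sum, and the genotypes overlapped (341 to 415 against 364 to 420). Of 8 accessory gland genes 1 was above background on all 4 arrays, and the sums of that list and of the duct, muscle and fat body lists overlapped. Within them *fln* (muscle), at 30.1 and 28.2 in the mutant and 13.8 and 16.9 in WT (log2 fold change 0.53, limma adjusted p = 0.690), and *Acp98AB* (accessory gland), at 12.9 and 21.5 against 8.80 and 7.41, were higher on both mutant arrays. *TpnC73F* (muscle), at 50.5 and 54.6 against 56.8 and 68.5, was lower on both mutant arrays. So was *Acp36DE*, the 1 accessory gland gene above background on all 4 arrays, at 50.3 and 58.3 against 60.4 and 65.5. The ratio of 5′ to 3′ signal of the *Act5C* control was 0.229 and 0.227 in the mutant and 0.297 and 0.264 in WT, and that of the other actin control was also lower on both mutant arrays, while those of GAPDH and eIF-4a overlapped. The part of RNA integrity in the V-ATPase values was not tested.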

How the data were processed

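Total RNA was extracted with Trizol, labelled with biotin and hybridised to 1-colour arrays. The authors deposited a linear intensity for every probe set. Its probe summary, background correction and scaling, not given in the sources used here, could change the values, and the arrays were taken as deposited. The 183 Affymetrix controls among 18952 probe sets were not tested. Probe sets were named through the platform annotation, which gives a single gene for 13647, updated through a gene table of genome release 6, which holds 13544 of their gene IDs. Both sources gave the same number of V-ATPase genes, 31. For 6 of these (*Vha55*, *Vha44*, *Vha26*, *Vha100-1*, *Vha100-2* and *VhaAC45*) the probe set has the suffix that Affymetrix gives to probes shared among transcripts, although the annotation names 1 gene.

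The two-sided test was limma (version 3.58.1, R 4.3.3; lmFit, then eBayes) with genotype as the sole term, and calls were made below an adjusted p of 0.05. The methods of the paper name SAM, which permutes the genotype labels and was not run. By SAM the paper lists more genes as changed in its microarray comparison than limma called here, so the 2 counts rest on different tests. Intervals are 95% and rest on 4.79 degrees of freedom. Ratios between paralogs were compared by an exact permutation test. The limma step was tested on simulated data. Ratios, tables and figures came from scipy 1.17.1 and matplotlib 3.10.9 under Python 3.11.15, with pandas 2.3.3. Log2 fold changes with test values were to be given for the 10 detected members with the smallest p and for members of subunits with several detected paralogs. From other lists at most 3 detected genes with the smallest p were to be named. *Mitf*, *vas*, *tj*, *upd1*, *Oatp58Dc* and *Irk1* are named outside that rule, as genes at background, *Acp98AB*, near it, and *Lamtor4*, higher in the mutant, all chosen after their values were seen. The members and lists were chosen with earlier results of these data known. Precision is limited by the small number of arrays. No sequences are printed, and the protein and promoter comparison that had been planned was not run.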

Additional observations from a re-analysis of the deposited data

How the results depend on the processing

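No V-ATPase gene was called under any alternative run, and the lowest adjusted p of a member in limma was 0.321. Leaving out probe sets not above background on all 4 arrays, and the alternatives for paralog ratios, were chosen after seeing the data. The number of called probe sets over the array was 1, and it was 0 with a pseudocount of 1, 3 with array medians centred, 3 with quantile normalization, 2 with cyclic loess, 2 with the replicate block, 122 without probe sets below the median level, 117 without those not above background, and 0 whichever array was left out. The labels give 2 replicate numbers to each genotype. Apart from a shift common to all probe sets, same-numbered arrays deviated together only weakly (correlation 0.15 over all probe sets), too few pairs to show a pairing. The common shift had the same direction in both genotypes. Replicate 1 minus 2 had a median log2 difference of -0.15 in the mutant and -0.18 in WT over genes above background. The block changed no call of a member, although the limma adjusted p of *Vha16-1* was 0.327 with it and 0.690 without it.

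The direction of small differences depended on how the arrays were scaled. The median of the members, -0.03 as deposited, was 0.0898 with medians centred, 0.064 with quantile normalization, 0.0459 with loess, and -0.0876 to 0.0289 without 1 array. Members with both mutant arrays above both WT arrays numbered 3 as deposited, 13 with medians centred (31.6% of all genes above background), 8 with quantile normalization and 9 with loess. Without 1 array, where 1 array faces 2, this count was 3 to 13 (13 without *nsr* mutant 1, 9 without WT 2). That of members below was then 9 to 20 (20 without *nsr* mutant 2, 15 without WT 1). The share of all genes was not computed for these counts, nor for those with quantile normalization and loess. The median gene above background also moved, from -0.1689 without WT 1 to 0.0058 without WT 2. Below both WT arrays were 7 as deposited and 5 with medians centred (17.8% of all genes above background). Among the 25 members given with log2 fold changes, those that turned above 0 with medians centred were *Vha36-1* (0.0898), *Vha14-1* (0.0854), *Vha14-2* (0.0419), *Vha100-2* (0.11), *Vha100-5* (0.0708), *VhaAC39-1* (0.0039) and *VhaM9.7-a* (0.0472). With quantile normalization *Vha36-1* (0.0317), *Vha14-1* (0.0369), *Vha100-2* (0.064), *Vha100-5* (0.0642) and *VhaM9.7-a* (0.0183) did, and with loess the same 5 (0.0245, 0.0218, 0.0459, 0.0583 and 0.0004). Outside the 25, *Vha68-3* and *Vha13* also turned above 0 with medians centred, and *Vha13* with quantile normalization and loess too. The cause was not tested. Without 1 array the sign changed for 11 of the 25, with ranges of -0.16 to 0.0365 for *Vha36-1*, -0.0876 to 0.13 for *Vha36-3*, -0.26 to 0.047 for *Vha14-2*, -0.20 to 0.13 for *Vha100-2*, -0.17 to 0.18 for *Vha100-3*, -0.0785 to 0.0092 for *Vha100-5*, -0.15 to 0.17 for *Vha16-4*, -0.0497 to 0.13 for *Vha16-5*, -0.22 to 0.0552 for *VhaM9.7-a*, -0.0818 to 0.26 for *VhaM9.7-c* and -0.0854 to 0.28 for *VhaM9.7-d*. Of the 25 members given with log2 fold changes, 12 kept their direction under every alternative run, among them the 7 below and the 3 above as deposited, but not their size. They ran from -0.47 to -0.25 for *Vha16-1*, -0.45 to -0.21 for *Vha44*, -0.52 to -0.25 for *Vha36-2*, -0.44 to -0.15 for *Vha100-1*, -0.27 to -0.0397 for *VhaPPA1-1*, -0.31 to -0.0519 for *VhaM9.7-b*, -0.31 to -0.0499 for *VhaAC45*, -0.32 to -0.0514 for *Vha55*, 0.15 to 0.37 for *Vha16-2*, 0.0686 to 0.27 for *Vha16-3*, 0.0342 to 0.22 for *VhaPPA1-2* and 0.0258 to 0.29 for *VhaAC39-2*, and the value nearest 0 came with medians centred for 7 of the 8 that are negative.

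The 20 separated paralog pairs kept their sign under both pseudocounts, the 3 normalizations and without each array, and 18 stayed separated under all 5 pseudocounts and normalizations. *Vha100-5* to *Vha100-1* overlapped with a pseudocount of 1 and with medians centred, and *VhaM9.7-d* to *VhaM9.7-a* with a pseudocount of 64. Leaving out 1 array brought 8 of the 20 closer to 0 by over 1.5 times. Without *nsr* mutant 1, *Vha36-2* to *Vha36-1* was -0.12 and *Vha16-4* to *Vha16-2* -0.11. Without *nsr* mutant 2, *Vha100-3* to *Vha100-1* was 0.11 and *Vha16-4* to *Vha16-1* 0.28. Without WT 1, *VhaM9.7-d* to *VhaM9.7-a* was 0.0886. Without WT 2, *Vha100-5* to *Vha100-1* was 0.0867, *Vha16-5* to *Vha16-2* -0.10 and *Vha16-5* to *Vha16-3* -0.0303.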
